A study of Mus musculus with 10 samples.

Results

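The gamma-A protocadherins described here are Pcdhga1 to Pcdhga10, 10 of the 22 gamma protocadherin genes and 10 of 52632 genes in the deposited table, taken by gene symbol alone. All 10 passed the filter on low counts. RNA was sequenced from neural stem cells grown as adherent monolayers from cortices of single mouse embryos at embryonic day 14.5. There were 2 E147A/+ and 2 +/+ libraries from females, and 3 of each genotype from males. E147A replaces a residue of the enzymatic part of SMCHD1, a noncanonical SMC protein that helps to silence one X chromosome in females and several autosomal clusters.

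The mutant animals carried one Smchd1 GFP-E147A allele, so tag and mutation cannot be told apart. The females of both genotypes were also XistdeltaA/+, and the males were XY. All embryos had a Castaneus (Cast) father and a mother that was itself a cross of 129 and C57. The E147A/+ females came from litters 1 and 2 and the +/+ females from litter 3, so genotype and litter cannot be told apart in females. Male E147A/+ embryos came from litters 1, 1 and 3, and male +/+ embryos from litters 4, 1 and 3. In 2 of the 4 female libraries, E147A/+ replicate 1 and +/+ replicate 2, almost no Cast counts were found at the locus. This goes against the labelled father. Females matched for the presence of Cast counts there were therefore also compared with each other. Each library was from a different embryo's culture, and total counts ranged from 20648916 to 44519020.

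Protocadherins of the clustered families are adhesion proteins of the cell surface that bind identical partners on neighbouring cells. The alpha, beta and gamma families lie next to each other, and each gamma gene has its own promoter and a long first exon that encodes the extracellular domains. That exon is spliced to constant exons shared by the whole gamma family, which encode a common cytoplasmic end. Neurons express different combinations of these genes, choosing among the promoters, and gamma protocadherins are known for their roles in neuronal survival, dendrite self-avoidance and synapse formation. Promoter use in the clusters depends on DNA methylation, CTCF and cohesin, and SMCHD1 is known as a repressor of clustered protocadherins.

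The array lies on the plus strand of chromosome 18 (GRCm38). Pcdhga1 (ENSMUSG00000103144) starts at 37661793 and Pcdhga10 (ENSMUSG00000102222) at 37746993, 85200 bases further on. All gamma genes end together near 37841873, because the shared exons lie there. Between the members, in order, lie Pcdhgb1 after Pcdhga3, Pcdhgb2 after Pcdhga4, Pcdhgb4 after Pcdhga7, Pcdhgb5 after Pcdhga8 and Pcdhgb6 after Pcdhga9. Each member has 4 exons in its main GENCODE transcript, and all 10 are protein-coding. Their first exons are 2545 to 2614 bases long. Between members, first exons were 67.1% to 76.8% identical (median 68.8%, 45 pairs), with Pcdhga8 and Pcdhga9 the closest pair. Only these 2 members held 80-base windows, the length of the reads, that occur unchanged in another gamma gene's first exon, at 2.25% of windows each.

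A read from the constant exons cannot say which gene it came from. Counts ranged from 49 to 456 per member and library, while Pcdhgc3, which shares the same constant exons, had 6431 to 15694. Reads in the shared exons were therefore not counted for every gene, and the members' counts are read here as those of their own exons. How such reads and strand were handled is not given in the sources used here. Antisense genes overlap Pcdhga1, Pcdhga7, Pcdhga8 and all 2613 own exonic bases of Pcdhga10. Counts of these were 0 for Gm37118, 0 to 6 for Gm37165 and 3 to 20 for Gm26672, which overlaps Pcdhga10.

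All members were expressed, at low levels and within a narrow range. Per kilobase of own exon, and averaged over the 10 libraries, Pcdhga3 had the highest mean, with 3.40 ± 0.595 CPM per kb (SD, n = 10; CPM is the count scaled to the TMM-normalised library size). Pcdhga7 followed with 3.25 ± 0.546, Pcdhga2 with 3.05 ± 0.743, Pcdhga4 with 2.78 ± 0.729 and Pcdhga5 with 2.44 ± 0.529. Lower were Pcdhga6 at 2.09 ± 0.776, Pcdhga10 at 1.98 ± 0.699, Pcdhga1 at 1.71 ± 0.425, Pcdhga8 at 1.21 ± 0.399 and Pcdhga9 at 0.992 ± 0.183 CPM per kb. No neighbours in this order differed beyond their spread: the higher gene led in 6 to 8 of 10 libraries, and each mean difference was under the SD of the differences. The order depended on the length used. Per kilobase of the whole first exon Pcdhga7 was highest with 3.86 CPM per kb and Pcdhga8 lowest with 1.16, below Pcdhga9 with 1.32. Pcdhga1 was then at 2.16 CPM per kb and Pcdhga4, whose own exonic length is 1570 bases, at 1.67. Pcdhgc3, a C-type gene of the same cluster, stood at 98.6 ± 18.1 CPM per kb, far above every member.

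**Figure D1:**
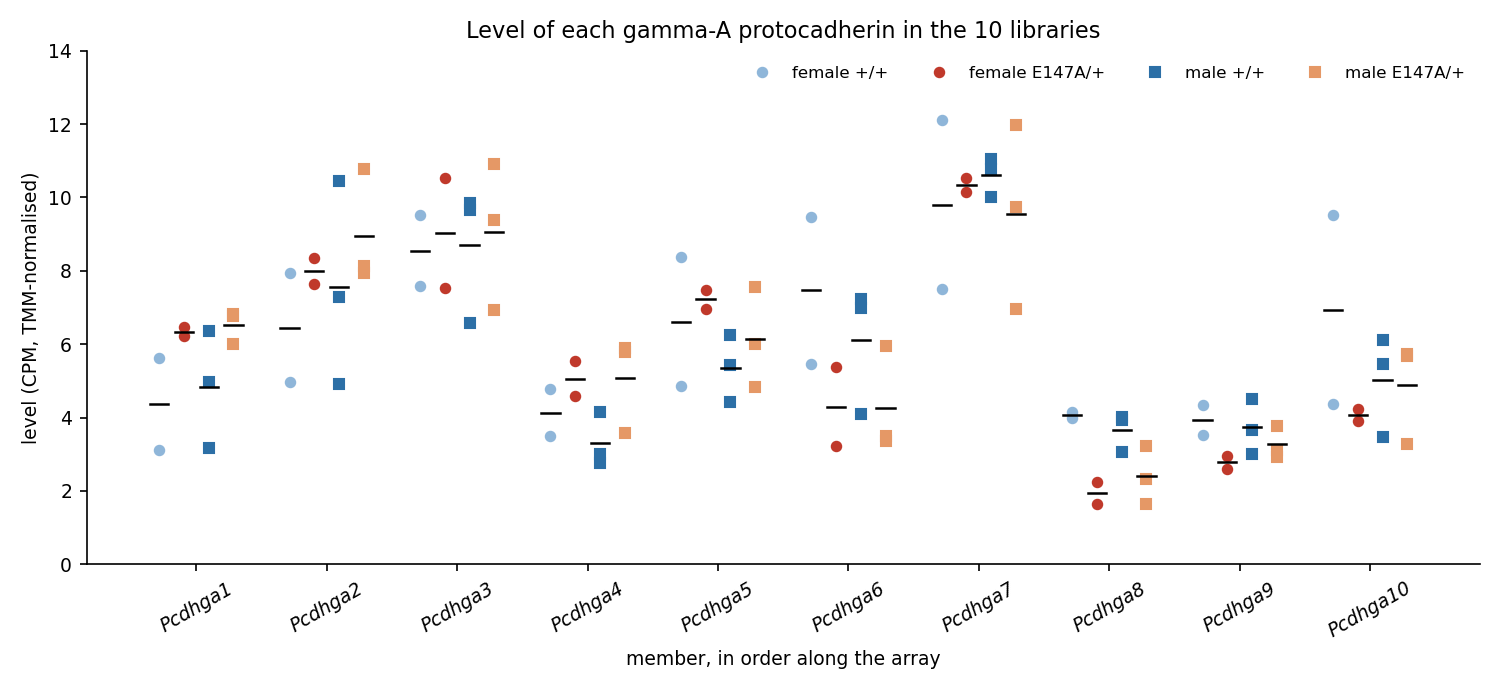
Level of each member in every library (vertical axis, CPM after TMM normalisation, linear from 0), with members in their order along the array (horizontal axis). Points are libraries, coloured by group, and black bars are group means; Pcdhga7 reached 12.1 CPM in female +/+ replicate 1, and Pcdhga8 was 1.94 ± 0.426 CPM in female E147A/+ against 4.07 ± 0.128 CPM in female +/+.

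The summed level of the 10 members did not separate the genotypes. It was 58.4 and 59.8 CPM in female E147A/+ and 75.6 and 49.0 CPM in female +/+. In males it was 65.6, 48.4 and 66.5 CPM in E147A/+ and 66.7, 54.7 and 55.2 CPM in +/+. The highest and the second lowest of all 10 sums were the 2 female +/+ libraries of litter 3, so libraries of one group and litter differed nearly as much as any 2 libraries. In bulk cultures, fewer expressing cells and less RNA per cell cannot be told apart.

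No member passed an adjusted p of 0.05 between E147A/+ and +/+ over both sexes in edgeR's quasi-likelihood test, where 0.0818% of 17110 genes tested did so. The numbers of members were also 0 of 10 in females and 0 of 10 in males, against 0.0117% and 0.0234% of all genes. Before adjustment, p fell under 0.05 for 1 member over both sexes, 1 in females and 0 in males, against 5.9%, 4.36% and 3.44% of all genes. With DESeq2 the counts of members past the adjusted threshold were also 0, and 2 had an unadjusted p under 0.05 over both sexes, where DESeq2 called 113 of 17110 genes and gave 1248 an unadjusted p under 0.05. The median log2 fold change of the members over both sexes was 0.02, beside -0.01 over all genes tested. It hid values on either side of 0, from -0.84 to 0.49, with 5 members above 0 and 5 below, where 48% of all genes lay above 0. In females 6 members lay above 0 (48.8% of all genes) and in males 5 (47.3%). Over both sexes 0 members had all E147A/+ libraries above or all below the +/+ libraries, which 0.695% and 0.742% of genes did.

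The 5 members nearest the start of the array all had positive log2 fold changes. Pcdhga1, the first gene of the array, had 6.47 and 6.22 CPM in female E147A/+ against 5.64 and 3.11 CPM in female +/+. Its male levels were from 6.001 to 6.82 CPM in the 3 E147A/+ libraries and 6.35, 4.98 and 3.17 CPM in +/+. Female libraries did not overlap by genotype, whereas in males the +/+ replicate 1, the library of litter 4, lay within the E147A/+ range. Over both sexes this gave 0.49 on the log2 scale (SE 0.27, 95% interval -0.11 to 1.09, adjusted p 0.821 in edgeR). It was 0.74 without female +/+ replicate 1 and 0.30 without female +/+ replicate 2.

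Pcdhga4 had 4.57 and 5.55 CPM in female E147A/+ and 4.78 and 3.49 CPM in female +/+. In males it had 5.89, 3.58 and 5.78 CPM in E147A/+ and 4.14, 3.00 and 2.77 CPM in +/+. Both sexes overlapped, and the log2 fold change was 0.46 (SE 0.26, 95% interval -0.12 to 1.04). Pcdhga2 had 0.28 (SE 0.26), and between 0.13 without female +/+ replicate 2 and 0.47 without female +/+ replicate 1. It also moved to 0.43 without male +/+ replicate 1, to 0.16 without male +/+ replicate 3 and to 0.48 with litter as a covariate. Pcdhga5 had 0.16 (SE 0.24) and Pcdhga3 0.07 (SE 0.23). For Pcdhga3 the values leave no clear direction, since its sign turned on leaving out any of 4 libraries, female E147A/+ replicate 1, female +/+ replicate 2, male E147A/+ replicate 1 or male +/+ replicate 1. Pcdhga5 was at -0.011 without female +/+ replicate 2.

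From the sixth member on, log2 fold changes were below 0, but that of Pcdhga7 had no stable sign. Its value was above 0 in females (0.08), without female +/+ replicate 1 (0.16), without male E147A/+ replicate 2 (0.06), and with limma-voom or with litter as a covariate. Pcdhga6 had 3.21 and 5.39 CPM in female E147A/+ and 9.46 and 5.47 CPM in female +/+. In males it had 3.48, 3.35 and 5.95 CPM in E147A/+ and 7.24, 4.08 and 6.99 CPM in +/+. The female groups stood apart only narrowly, the male groups overlapped, and the log2 fold change was -0.66 (SE 0.31, 95% interval -1.35 to 0.04). It was -0.34 with litter as a covariate and -0.43 without female +/+ replicate 1.

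Pcdhga8 was the member with the lowest fold change. In edgeR's quasi-likelihood test of all 10 libraries it was the only one whose unadjusted p was below 0.05, over both sexes and in females. Over both sexes 2 members had an unadjusted p under 0.05 with DESeq2 and 3 with limma-voom. The level of Pcdhga8 is given next. Its level was 1.64 and 2.24 CPM in female E147A/+ against 3.98 and 4.16 CPM in female +/+. In males it was 2.33, 1.64 and 3.23 CPM in E147A/+ against 4.00, 3.94 and 3.07 CPM in +/+. Every E147A/+ library but male replicate 3 lay below every +/+ library. This came to -0.84 on the log2 scale (SE 0.28, 95% interval -1.46 to -0.22), with an unadjusted p of 0.013 and an adjusted p of 0.728 in edgeR. Its adjusted p ranged from 0.173 with DESeq2 to 1 across the alternatives tried.

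Pcdhga9 had a log2 fold change of -0.34 (SE 0.24), Pcdhga10 of -0.40 (SE 0.31) and Pcdhga7 of -0.04 (SE 0.22). Pcdhga10 differed most between female +/+ libraries, at 9.52 and 4.37 CPM, while female E147A/+ had 3.90 and 4.23 CPM. Its male levels were 5.73, 3.28 and 5.68 CPM in E147A/+ and 6.10, 3.47 and 5.47 CPM in +/+, so the male groups overlapped. Its log2 fold change was -0.77 (SE 0.48) in females and -0.03 (SE 0.39) in males. The difference between the sexes was -0.74 (SE 0.61, 95% interval -2.11 to 0.64, adjusted p 0.999 in edgeR). These values rested on the female +/+ libraries. Without replicate 1 of that group the log2 fold change of Pcdhga10 was -0.11 in females and -0.06 over both sexes, and the difference between the sexes was -0.096. Without replicate 2 of that group they were -1.23, -0.63 and -1.19. With litter as a covariate the value over both sexes was -0.06 and the male value 0.24. The male sign also turned on leaving out male E147A/+ replicate 2, male +/+ replicate 1 or male +/+ replicate 3.

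The sex by genotype interaction passed for 0 of 10 members and for 0% of all genes in edgeR, and before adjustment p was below 0.05 for 0 members and 314 genes (1.84%). DESeq2 called 2 genes and 0 members. Interaction values ran from -0.74 to 0.23, with 4 members above 0, where 53.2% of all genes were. In females, 1 member had libraries that were all higher in E147A/+ (Pcdhga1) and 4 had libraries that were all lower (Pcdhga6, Pcdhga8, Pcdhga9 and Pcdhga10). Over all genes this held for 21.8% and 19.3%, a common outcome with 2 libraries against 2. In males 0 members were separated in either direction, against 3.2% and 3.96% of all genes.

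**Figure D2:**
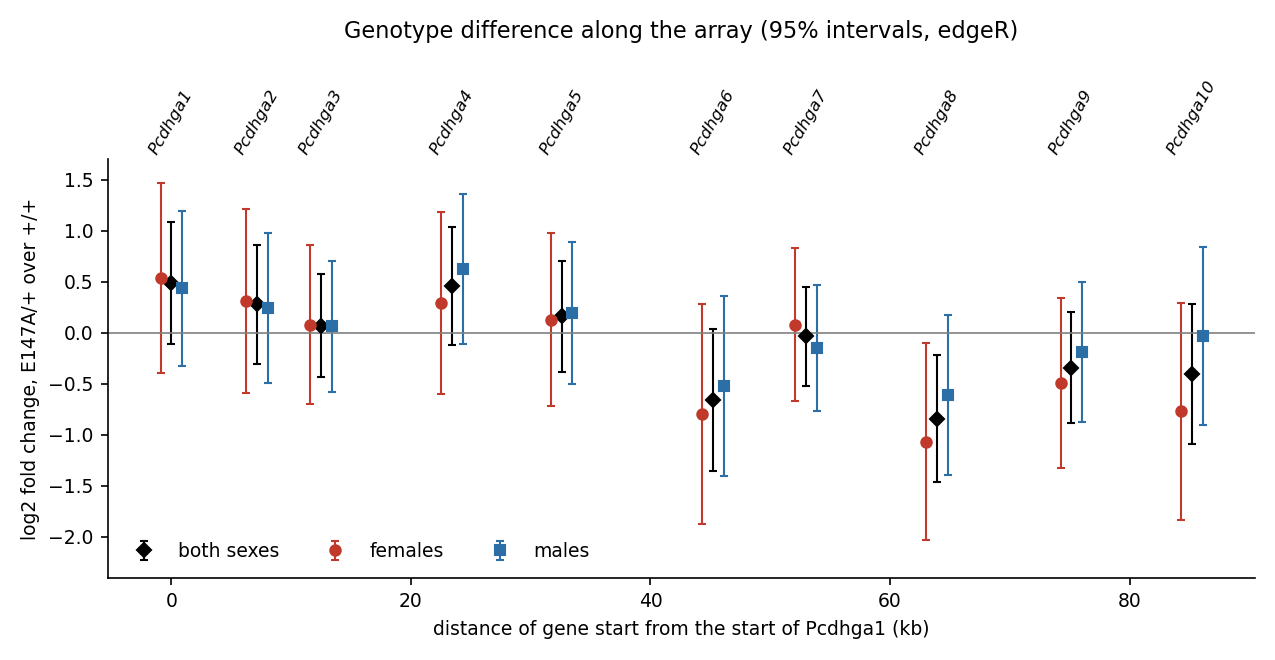
Log2 fold change of E147A/+ over +/+ (vertical axis) for each member, placed by the distance of its start from the start of Pcdhga1 in kb (horizontal axis). Diamonds are both sexes, circles females and squares males, with 95% intervals from edgeR. Values over both sexes run from 0.49 at Pcdhga1 to -0.84 at Pcdhga8. Values of single sexes reach 0.62 at Pcdhga4 in males and -1.07 at Pcdhga8 in females, and most intervals include 0.

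The fold changes were ordered along the array. Across the 10 members, Spearman's rho between position and log2 fold change was -0.81 over both sexes, -0.83 in females and -0.72 in males, which share no libraries with each other. Members lie in one array and were measured in the same libraries, so these are descriptions with no p. The rho of level per kb was -0.45 with position and 0.36 with log2 fold change. Over all 22 gamma genes, gamma-B and C-type genes included, rho between position and fold change was -0.69 over both sexes.

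The same order can be read without any normalisation between libraries, as the share of the members' summed counts that came from the first 5 genes, Pcdhga1 to Pcdhga5. This split was chosen after the values were seen, so any separation it gives is a description with no test. Among female E147A/+ libraries it came to 63.2% (Wilson 95% limits 61.27 to 65.03) and 57.6% (55.7 to 59.5). It was 47.9% (45.9 to 49.9) and 48.9% (46.7 to 51.2) in female +/+. In male E147A/+ it was 58.4%, 62.5% and 58.3%, and in male +/+ 50.6%, 54.0% and 47.0%. The shares themselves did not overlap by genotype, the lowest in E147A/+ being 57.6% and the highest in +/+ 54.0%. Their limits did: those of male +/+ replicate 2 (51.1 to 56.8) overlapped those of female E147A/+ replicate 2. They also overlapped those of male E147A/+ replicate 1 (56.4 to 60.3) and replicate 3 (56.1 to 60.4). The intervals cover counting error only.

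**Figure D3:**
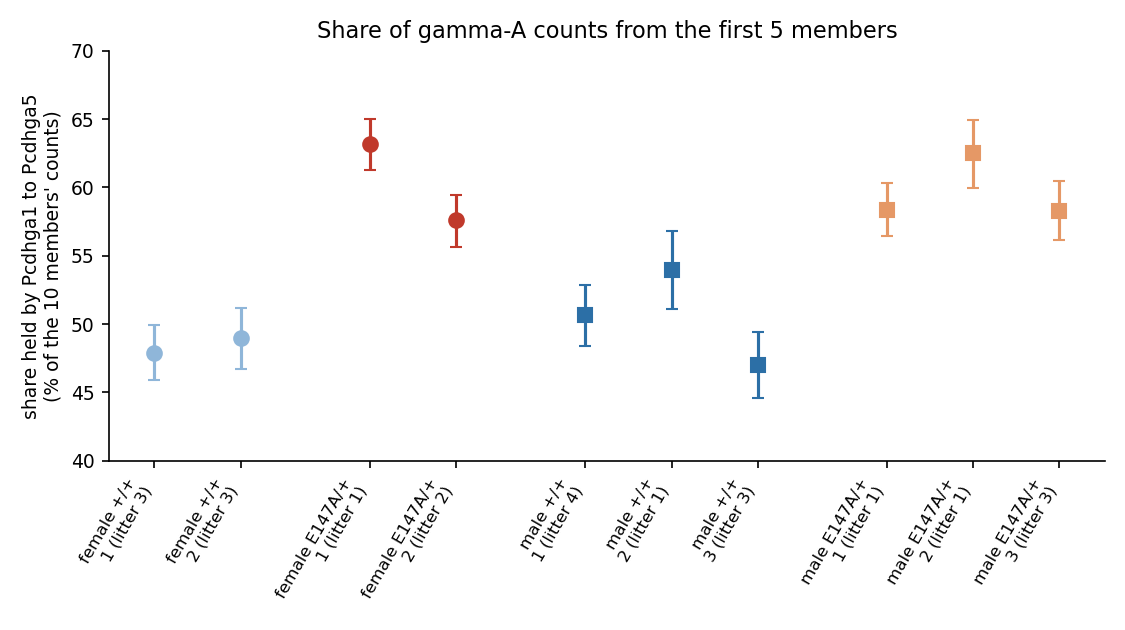
Share of the 10 members' counts held by Pcdhga1 to Pcdhga5 (vertical axis, %, from 40 to 70) in each library (horizontal axis, with its litter). Bars are 95% Wilson intervals of counting error; the 5 E147A/+ libraries lie between 57.6% and 63.2% and the 5 +/+ libraries between 47.0% and 54.0%.

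Libraries also differed in litter and in strain at the locus. Within litter 1 the share of the first 5 members was 58.4% and 62.5% in male E147A/+ against 54.0% in male +/+. Within litter 3 it was 58.3% in male E147A/+ against 47.0% in male +/+. Gene by gene the order was weaker within litters: rho with position was -0.22 in litter 1 (2 libraries against 1) and -0.54 in litter 3 (1 against 1). Pcdhga8 was at -0.99 on the log2 scale in litter 1 but at 0.07 in litter 3. Pcdhga1 was at 0.36 and 1.10, and Pcdhga4 at 0.66 and 1.06.

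The composition is given here for part of the members. Pcdhga1 made up 10.7% ± 0.476 (SD, n = 2) of the members' counts in female mutants and 6.90% ± 0.786 (n = 2) in female controls. For males these shares were 11.1% ± 2.53 (n = 3) and 8.12% ± 2.07 (n = 3). Pcdhga6 made up 7.25% ± 2.48 against 11.8% ± 0.949 in females and 7.06% ± 1.82 against 10.3% ± 2.63 in males. Pcdhga8 made up 3.28% ± 0.666 against 6.88% ± 2.28 in females and 3.93% ± 0.799 against 6.26% ± 0.855 in males. Pcdhga7 held a mean of 15.7% to 18.1% in each of the 4 groups, with no common order of the genotypes.

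For the 4 female libraries, counts assigned to the 129 or the Cast allele were also used. The mothers were crosses of 129 and C57. Whether a copy counted as 129 here came from 129 or C57 was not tested. Among genes within 10 Mb of the gamma cluster, clustered protocadherins left out, the median Cast share was 48.2% in E147A/+ replicate 2 and 47.7% in +/+ replicate 1. It was 0.291% in E147A/+ replicate 1 and 0.406% in +/+ replicate 2. The former 2 libraries were thus heterozygous at the locus and the latter 2 had nearly only 129 counts there, 1 of each genotype either way. The labels give a Castaneus father for every animal. Male libraries were not analysed by allele here. In the libraries with nearly only 129 counts, Cast counts were 6 of 1286 and 2 of 953 over the members, 0.467% and 0.21%. The floor of 3 counts is 0.233% and 0.315% there, so the former share lies above its floor and the latter below.

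Both alleles of the array were expressed in the heterozygous libraries. The members together had a Cast share of 48.8% (95% Wilson interval 46.1 to 51.4, 1372 allelic counts) in E147A/+ replicate 2. In +/+ replicate 1 it was 46.6% (43.9 to 49.4, 1289 allelic counts). Allelic counts were 53.0% and 54.3% of the members' total counts in these libraries. With 1 heterozygous library per genotype no test between genotypes is possible.

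Among single members, some counts were split unevenly between the alleles. Such splits also occurred outside the members. Cast shares of single flanking genes with at least 50 allelic counts ran from 12.8% to 100% in E147A/+ replicate 2. In +/+ replicate 1 they ran from 10.7% to 72.4%. The intervals are of counting error within 1 library each. Pcdhga3 had a Cast share of 30.3% (23.1 to 38.6) in E147A/+ replicate 2 and 35.5% (27.6 to 44.4) in +/+ replicate 1. Pcdhga1 was on the other side, at 59.3% (51.0 to 67.1) and 62.7% (51.4 to 72.7). These were the 2 members whose intervals left out 50% in both libraries. Pcdhga9 reached 67.9% (57.1 to 77.1) in E147A/+ and 55.7% (44.7 to 66.1) in +/+. Pcdhga2 had 54.1% (44.8 to 63.2) in E147A/+ and 35.4% (25.9 to 46.2) in +/+, the widest gap between these libraries. Whether reads of either strain were assigned with equal ease was not tested.

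**Figure D4:**
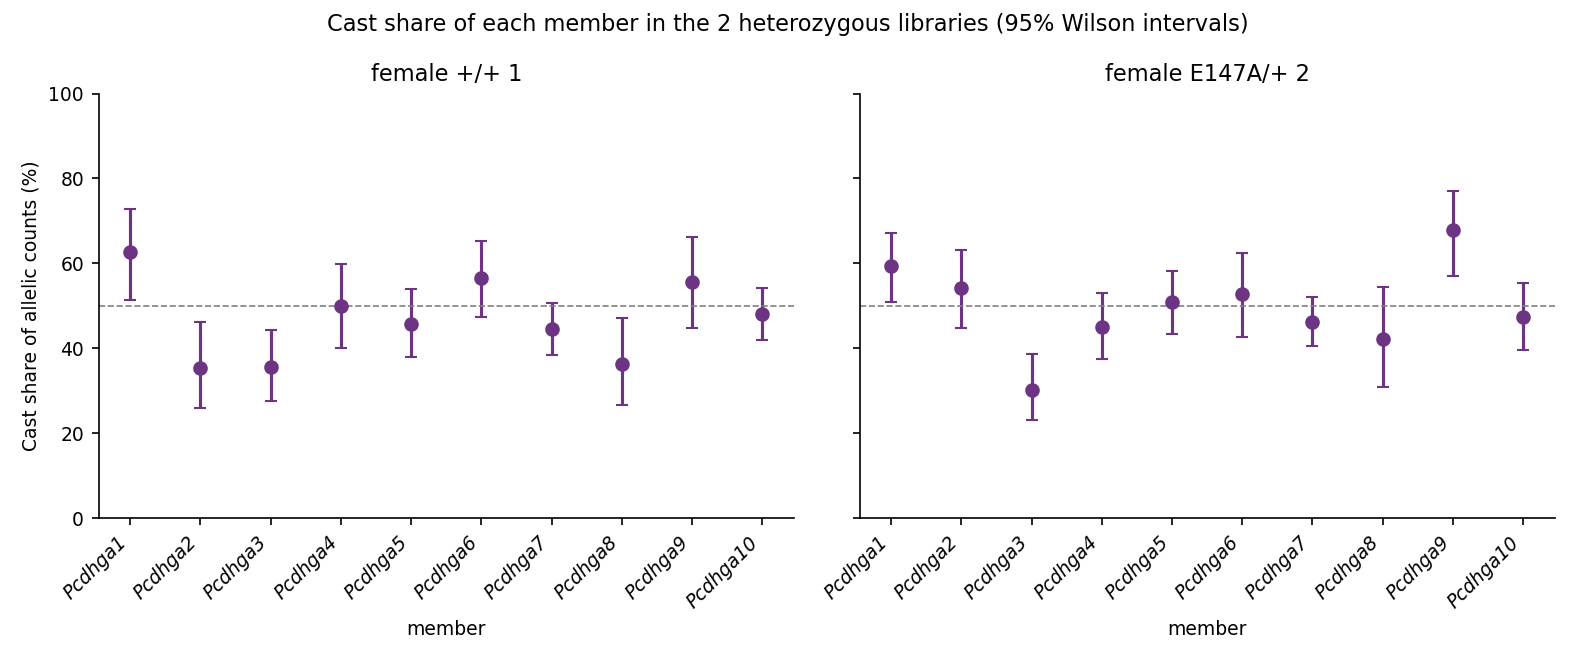
Cast share of allelic counts (vertical axis, %) for each member (horizontal axis) in the heterozygous female libraries, +/+ replicate 1 on the left and E147A/+ replicate 2 on the right. Bars are 95% Wilson intervals and the dashed line marks 50%; Pcdhga3 lies below the line and Pcdhga1 above it in both.

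Per allele, the difference between these 2 libraries had the same sign on both copies for 9 of 10 members. Of these, 2 were higher in E147A/+ and 7 lower. Both copies were read in the same 2 libraries, where the members summed to 59.8 CPM in E147A/+ and 75.6 CPM in +/+. The share of all genes with such a shared sign was not computed. Intervals of counting error left out 0 on both alleles only for Pcdhga6 and Pcdhga10. For Pcdhga10, the last member, the 129 allele had 1.83 CPM in E147A/+ and 4.14 in +/+, a log2 ratio of -1.18 (95% interval of counting error -1.60 to -0.77). Its Cast allele had 1.64 and 3.82 CPM, a log2 ratio of -1.22 (-1.66 to -0.78). Pcdhga6 had log2 ratios of -0.65 (-1.26 to -0.03) on the 129 allele and -0.87 (-1.44 to -0.31) on the Cast allele. Pcdhga1 was higher on both, at 0.56 (-0.11 to 1.27) and 0.36 (-0.17 to 0.91). Pcdhga2 had opposite signs, -0.55 on 129 and 0.56 on Cast. These ratios compare 2 libraries of different litters, not the genotypes.

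Total levels were also compared between females matched for the presence of Cast counts at the locus. Between the 2 libraries with nearly only 129 counts, E147A/+ replicate 1 against +/+ replicate 2, rho of the log2 ratio with position was -0.78. Between the 2 heterozygous libraries it was -0.79. The pairs differed in overall height, with 6 of 10 members higher in E147A/+ in the former and 2 of 10 in the latter. Pcdhga1 was at 1.06 and 0.14 on the log2 scale, Pcdhga6 at -0.77 and -0.81, and Pcdhga8 at -1.34 and -0.83.

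The other clustered protocadherins show how the array fits into its surroundings. Of the gamma genes downstream of Pcdhga10, Pcdhga12 stood at -1.16 on the log2 scale (SE 0.26, adjusted p 0.328 in edgeR) and Pcdhga11 at -0.50 (SE 0.31). Among the interleaved gamma-B genes 0 of 7 passed, with Pcdhgb1 at 0.39, Pcdhgb2 at 0.40, Pcdhgb4 at 0.48, Pcdhgb5 at -0.06, Pcdhgb6 at -0.9995, Pcdhgb7 at -0.77 and Pcdhgb8 at -0.15. The C-type genes Pcdhgc3, Pcdhgc4 and Pcdhgc5 had -0.22, -0.74 and -0.28, and none passed. Upstream, 4 of 21 tested beta genes and 3 of 12 tested alpha rows (11 symbols) passed, all of them higher in E147A/+. With litter as a covariate only 3 genes of any kind passed over both sexes, and with a replicate block 5. Not all of these beta and alpha calls therefore held under either alternative. Median log2 fold changes were 1.25 for beta and 3.79 for alpha, beside 0.02 for the members in the same libraries. All alpha rows together summed to only 2.55 to 3.19 CPM in female +/+ and 2.30 to 3.04 CPM in male +/+. The size of the alpha ratios therefore rests on few +/+ counts.

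Genes bordering the gamma cluster had small differences. 3222401L13Rik, on the same strand and ending at 37661742, just before Pcdhga1 starts, had a log2 fold change of 0.19 (SE 0.26). Gm8242, further upstream, had -0.06 (SE 0.31). On the far side Diaph1, a formin that nucleates actin filaments, had -0.18 (SE 0.18) and Hdac3, a histone deacetylase, had 0.01 (SE 0.15). None passed.

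Regulators of the clusters and partners of gamma protocadherins were listed as well. Of 24 regulators, which include CTCF, cohesin, DNA methyltransferases and TET enzymes, 0 passed over both sexes, with 8 above 0 and 16 below and a median of -0.05. Smchd1 itself was at -0.42 (SE 0.15, adjusted p 0.786 in edgeR). Gene counts do not show a change of 1 residue, so this does not check the genotype. Of 19 tested genes for partners and for cleavage of gamma protocadherins, 0 passed, with 5 above 0 and 14 below and a median of -0.08.

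Markers were read to see which cells the cultures held. All 9 neural stem cell markers passed the filter, with summed levels of 4726 to 6795 CPM. Blood markers summed to at most 0.276 CPM and microglial markers to at most 2.84 CPM. Neuronal markers summed to 631.9 to 1292 CPM, of which Map2 gave 477.3 to 981.8 CPM and Gap43 21.9 to 312 CPM, while Tubb3 was at 5.27 to 30.1 CPM, Dcx at 1.39 to 26.5 CPM and Rbfox3 at 0.675 to 8.25 CPM. Other sums were lower, with dorsal forebrain markers at 33.7 to 70.4 CPM, meningeal fibroblast markers at 3.14 to 15.3 CPM and mural cell markers at 0.416 to 9.01 CPM. The genotypes overlapped in both sexes in each of these sums. Emx2, at 33.6 to 59.7 CPM, made up most of the dorsal forebrain sum. Emx1 was at 0 CPM in female E147A/+ replicate 2, female +/+ replicate 1 and male +/+ replicate 3. Eomes and Neurog2 were at most 0.0675 CPM in those libraries. Summed levels of 4 marker lists did not overlap between genotypes in females, but did in males. Astrocyte markers (5 of 5 tested, 0 passed) were at 278.5 to 297.8 CPM in female E147A/+ and 232.8 to 235.4 CPM in female +/+, and at 177.5 to 240.6 and 227.2 to 287.1 CPM in males. Most of the female gap was Aldh1l1, at 112 and 97.1 against 71.0 and 37.4 CPM, whereas Gfap, Aqp4 and Aldoc overlapped in females, and 3 of 5 markers were below 0 over both sexes. Endothelial markers (4 of 4 tested, 0 passed) were at 0.948 to 1.96 and 3.18 to 3.21 CPM in females, and at 0.636 to 2.49 and 0.939 to 3.75 CPM in males. Ventral forebrain markers (3 of 4 tested, 0 passed, Nkx2-1 at 0 in every library) summed to 10.9 to 12.2 CPM in female E147A/+ and 0.669 to 1.39 CPM in female +/+. In males they summed to 1.66 to 3.82 and 0.304 to 3.66 CPM. All 3 tested markers were above 0 over both sexes, with a median log2 fold change of 2.18 and an unadjusted p under 0.05 for each. Oligodendrocyte lineage markers (6 of 6 tested, 1 passed, Gpr17, lower in E147A/+) summed to 85.4 to 129.6 and 177.7 to 236.5 CPM in females. In males they summed to 131.8 to 185.8 and 103.9 to 452.6 CPM. Cspg4, at 61.2 to 322.3 CPM over the 10 libraries, made up most of these sums. Of the 6 markers 5 were below 0 over both sexes, with a median of -1.42, and 3 had an unadjusted p under 0.05. Pdgfra, at -2.38 (adjusted p 0.249 in edgeR), and Gpr17 were lower in every E147A/+ library than in every +/+ library within each sex. The part of these marker lists in the members' values was not tested.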

How the data were processed

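Counts per gene, raw and whole, were deposited by the authors for 10 libraries, and allelic counts (129 or Cast) were used for the 4 female ones. Per the submitters' processing notes, Trim Galore 0.4.4, HISAT2 2.0.5, featureCounts, R 3.5.1, edgeR 3.24.0 and the builds GRCm38 and mm10 were used. Their settings, the use of strand and the allele assignment are not given in the sources used here. Per the labels' protocols, libraries were stranded poly(A) libraries read as 80 bp pairs.

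After filterByExpr (17110 of 52632 genes kept) and TMM scaling, the quasi-likelihood test of edgeR 4.0.16 was run under R 4.3.3. The fit had 1 mean per group over all 10 libraries and left 6 residual degrees of freedom. Benjamini-Hochberg adjustment covered every gene tested, at 0.05. Each SE was obtained from the log2 fold change and its F statistic (absolute change over root F). p-values measure the spread between cultures. Exon lengths came from GENCODE M21, whose coordinates equal the table's for all 22 gamma genes. The edgeR fit was tested on simulated counts, for the contrast over both sexes and without litter effects. Alternatives were RLE, DESeq2 1.42.0, limma 3.58.1 voom with quality weights, other filters, smaller fits, litter, a replicate block and leaving out each library, raw library sizes for the summed level, and minimum allelic counts. Members, lists and tests were chosen with earlier results of these data known. All members were named, with list genes as counts, the other gamma genes, the nearest 2 neighbours each side, Smchd1, and the 5 genes most like the summed level. Marker genes and the antisense genes Gm37118, Gm37165 and Gm26672 were named outside that rule, after their values were seen.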

Additional observations from a re-analysis of the deposited data

How the results depend on the processing

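The count of members past the threshold was 0 in all 4 comparisons under every alternative run, with 0 to 3 at an unadjusted p under 0.05, and the lowest adjusted p of any member was 0.173. Of 740 member values under alternatives 698 kept their sign. Over both sexes the count of all genes past the threshold, 14, became 113 with DESeq2, 29 with limma-voom, 33 without a filter, 9 with 10 counts in every library, 3 with litter as a covariate and 5 with the replicate block. In females 2 became 46 with DESeq2, 8 without a filter, 0 with litter, 0 with the replicate block (836 unadjusted) and 1 with only the groups compared. In males 4 became 48 with DESeq2, 9 with limma-voom, 14 without a filter, 2 with litter, 2 with the replicate block and 1 with only the groups compared. For the interaction 0 became 2 with DESeq2 and 1 with litter. Same-numbered libraries are different embryos. Their deviations correlated at -0.304 in females and at -0.238, 0.416 and 0.0341 in males, where 2 of 6 libraries correlated best with their own number. The female numbers crossed, chosen after seeing the data, gave a replicate block with 0 genes in females and 6 over both sexes.

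Signs turned for Pcdhga7 over both sexes (0.00514 with limma-voom and 0.00604 with litter), Pcdhga10 in males (0.089 and 0.24) and, with litter, Pcdhga3 in males (-0.10) and the interaction values of Pcdhga1 (-0.32) and Pcdhga2 (-0.16). Leaving out each library, where a lone sample is assumed to vary like the other groups, gave 2 to 12 genes over both sexes (2 without female E147A/+ replicate 2), 0 to 2 in females, 1 to 4 in males and 0 to 1 for the interaction. Over both sexes Pcdhga3 ranged from -0.0471 to 0.20, Pcdhga5 from -0.011 to 0.39 and Pcdhga7 from -0.19 to 0.16. In females these were -0.18 to 0.32, -0.21 to 0.57 and -0.23 to 0.46. In males Pcdhga3 ranged from -0.10 to 0.22, Pcdhga7 from -0.34 to 0.0349 and Pcdhga10 from -0.24 to 0.19. Interaction values ranged from -0.26 to 0.57 for Pcdhga1, -0.24 to 0.42 for Pcdhga2, -0.26 to 0.24 for Pcdhga3, -0.40 to 0.35 for Pcdhga5, -0.70 to 0.14 for Pcdhga6 and -0.0759 to 0.59 for Pcdhga7. The cause was not tested. The summed level in female +/+ was 49.2 or 75.7 CPM with 1 library left out. Members with 49 to 456 counts and 2 or 3 libraries per group gave 95% intervals over both sexes that included 0 for every member except Pcdhga8.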

Other observations

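Outside the clustered protocadherins, 5 genes had the highest Pearson r of log2 CPM with the summed level of the 10 members over the 10 libraries, out of 12774 genes compared, all of whose log2 CPM averaged 1 or more. They were Nfkbia on chromosome 12 (r = 0.928), Pxdc1 on chromosome 13 (0.918), Parp12 on chromosome 6 (0.912), Prob1 on chromosome 18 (0.9) and Ptprf on chromosome 4 (0.883). Nfkbia encodes an inhibitor of NF-kappa-B and Ptprf a receptor tyrosine phosphatase. These are descriptions with no p, since the summed level has a narrow range, from 48.4 to 75.6 CPM, and the genes were picked as the highest of many.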
